A study of Mus musculus with 8 samples.

Results

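Fibroblast growth factor (FGF) signalling in mouse nephron progenitors was followed through 10 genes. They are the ligands Fgf8, Fgf9 and Fgf20, the receptors Fgfr1 and Fgfr2, the feedback inhibitors Spry1, Dusp6 and Il17rd, and the transcription factors Etv4 and Etv5. All array probes whose RefSeq accession maps to these symbols were taken, which gave 17 of the 55681 probes on the array and 10 of the 20887 gene symbols. The genes were chosen for their place in the pathway, without a threshold on any measured value.

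Cells were sorted from kidneys of C57BL/6 mouse embryos at embryonic day 15.5 for the enhanced green fluorescent protein (EGFP) of a Six2CreEGFP transgene, which marks nephron progenitors. Both groups carried the transgene: wildtype cells were Six2CreEGFP+; HDAC1&2 +/+, with intact alleles of the histone deacetylases Hdac1 and Hdac2, and mutant cells were Six2CreEGFP+; HDAC1&2 f/f, in which Cre acts on floxed alleles of both genes. The deletion is therefore driven by the same Six2 transgene that was used to sort the cells. Each group had 4 pools, and 0.5 µg of total RNA per pool was labelled with Cy5 and hybridised with Cy3-labelled RNA of wildtype pool 1. Values are log2 ratios of Cy5 over Cy3, so 0 is the level of wildtype pool 1, and the wildtype 1 array carried the same RNA in both dyes.

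Pools 3 and 4 of each group differed in Cy5 by a median absolute deviation of 0.0568 to 0.0602 (log2 levels of 10 to 12). Leaving aside pairs with wildtype 2, the Cy3 channels, which hold 1 RNA, differed by 0.0456 to 0.0784, and the other Cy5 pairs by 0.110 to 0.354. Pairs with wildtype 2 reached 0.0996 in Cy3 and 0.398 in Cy5. Pools 3 and 4 were therefore averaged and counted as 1 sample, which left 3 wildtype and 3 mutant samples. The sources used here do not state if pools share animals, and the p-values measure only the spread between these samples. Hdac1 ratios were 0.12 to 0.20 on the wildtype arrays and -0.20 to -0.07 on the mutant arrays, and Hdac2 ratios were -0.22 to -0.07 and -0.54 to -0.04. The sources used here do not place those probes relative to the deleted part. Of 17 nephron progenitor markers, 16 were well above background on all 8 arrays, and Six2 itself had ratios of -0.17 to 0.21 in wildtype and -0.32 to 0.02 in mutant pools. Cited1, a marker of the self-renewing progenitors, differed by -2.72 (SE 0.13; adjusted p = 0.0028, limma). The wildtype 2 array stood apart, with 48625 probes well above background in Cy5 against 28148 to 33981 on the others. The mutant 1 array stood apart too: the median SD between probes of 1 gene was 0.245 there and 0.0826 to 0.142 elsewhere (3916 genes). Results that rest on these arrays are given with and without them.

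FGFs are secreted proteins that bind receptor tyrosine kinases together with heparan sulfate and activate the RAS-ERK kinase cascade. In the embryonic kidney, Fgf9 and Fgf20 sustain nephron progenitors, Fgf8 is needed in the early nephron that forms from them, and Fgfr1 and Fgfr2 receive the signal in the cap mesenchyme. The cascade induces the ETS transcription factors Etv4 and Etv5 and its own inhibitors, among them Sprouty proteins, the ERK phosphatase Dusp6 and the membrane protein Il17rd.

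Promoter windows were looked up for the 10 genes in RefSeq (GRCm38.p6, 250 bases before to 50 after the start site), and 6 of them had at least 1. The 250 bases before the start site are shown for Fgf9 and Il17rd, which lie on 1 chromosome and were lower in the mutant sample of all 3 pool numbers, and for Dusp6, an ERK target that was higher in the mutant sample of all 3. Capitals mark the PEA3 motif (AGGAAG or its complement CTTCCT), bound by Etv4 and Etv5, and the GC box (GGGCGG or its complement CCGCCC).
Fgf9, chr14:58072436-58072685, plus strand: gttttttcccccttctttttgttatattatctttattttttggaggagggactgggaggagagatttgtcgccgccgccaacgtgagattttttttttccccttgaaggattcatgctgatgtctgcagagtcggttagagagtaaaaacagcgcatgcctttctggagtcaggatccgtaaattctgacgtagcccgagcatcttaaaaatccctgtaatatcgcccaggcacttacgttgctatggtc
Il17rd, chr14:27038751-27039000, plus strand: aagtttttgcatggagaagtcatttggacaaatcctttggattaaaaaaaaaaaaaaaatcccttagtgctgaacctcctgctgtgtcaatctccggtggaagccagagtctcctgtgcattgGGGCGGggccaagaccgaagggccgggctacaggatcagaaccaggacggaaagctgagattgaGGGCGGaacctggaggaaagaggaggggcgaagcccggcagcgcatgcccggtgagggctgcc
Dusp6, chr10:99262981-99263230, plus strand: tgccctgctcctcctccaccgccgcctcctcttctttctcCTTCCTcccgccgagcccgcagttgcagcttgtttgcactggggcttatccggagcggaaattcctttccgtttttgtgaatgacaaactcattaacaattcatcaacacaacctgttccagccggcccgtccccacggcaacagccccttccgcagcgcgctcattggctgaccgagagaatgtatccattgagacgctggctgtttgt
The full 300-base windows were searched on both strands, and the motifs do not overlap in letters. The Il17rd window held 3 GC boxes, the last of them 26 bases after the start site, and no PEA3 motif. Dusp6 held 1 PEA3 motif at 210 bases before the start site and no GC box, and Fgf9 held neither. Etv5, also higher in the mutant sample of all 3 pool numbers, is not printed. Its first window held 3 GC boxes and no PEA3 motif, and its second 1 PEA3 motif and no GC box. Over the 7 windows of the 6 genes (Etv5 has 2), 3 held a PEA3 motif and 3 a GC box, against 35.4% and 35.7% of all 32851 windows. A further ETS motif, CCGGAA or its complement TTCCGG, was in none of the 7 and in 14.9% of all windows. The shorter GGAA that it shares with the PEA3 motif was not counted, so its absence is not shown.

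None of the 10 genes passed the test between mutant and wildtype (limma, Benjamini-Hochberg adjusted p threshold of 0.05, two-sided), where 10 of all 22662 genes tested did (0.0441%; 5 higher, 5 lower). Centring each array on its spike-in probes, which moved the median of all genes to -0.14, gave 9 higher and 82 lower calls and again none among the 10. In a fit that takes the pool number as a block (the replicate block), 34 genes passed (0.15%), again none of the 10. At an unadjusted p under 0.05, Fgf20 and Il17rd passed, 2 of 10 against 7.24% of all genes (4.46% higher, 2.78% lower). By the brightest probe of each gene, the largest differences were in Fgf20 (higher in mutant cells), Il17rd and Fgf9 (both lower), none past the threshold. Mutant means were below wildtype means for 6 of the 10 genes and above for 4, and the median difference was -0.10, against 0.0017 over all genes tested. Groups of samples did not overlap for 1 of the 10, Il17rd, which was lower, against 5.95% of all genes with groups not overlapping in that direction and 8.72% in the other. All 10 genes had a probe well above background on all 8 arrays, and no probe of theirs was saturated. On the wildtype 1 array, where the same RNA filled both dyes, the 16 member probes that passed the filter did not read 0. They ran from -0.20 (Fgf20, second probe) to 0.21 (the third Fgfr1 probe and, just below it, Fgf9). These are readings of 1 array, and a probe's dye bias that all arrays share cancels between the groups. They therefore give no noise scale for the differences.

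Fgf20, a progenitor-derived ligand that keeps the cap mesenchyme undifferentiated, was measured by a pair of probes. Its brightest probe read -0.12, 0.15, 0.13 and -0.08 in wildtype pools 1 to 4, and 0.13, 1.08, 0.69 and 0.87 in mutant pools 1 to 4. Mutant pools 2, 3 and 4 lay well above all wildtype pools, while mutant pool 1 lay inside the wildtype range. Wildtype samples averaged 0.02 ± 0.14 and mutant samples 0.66 ± 0.49 (SD, n = 3 each). The difference was 0.64 (SE 0.23; 95% interval 0.09 to 1.20), a 1.56-fold higher level, with an adjusted p of 0.614 in limma and 0.21 with the replicate block. Mutant exceeded wildtype within all 3 pool numbers, by 0.25, 0.93 and 0.75. The second probe read -0.20, 0.06, 0.03 and 0.19 in wildtype and -0.01, 1.00, 0.69 and 0.69 in mutant pools, the same split of mutant pool 1 from the other three. Its difference was 0.57 (SE 0.25; adjusted p = 0.80 over all probes, limma). Without mutant pool 1 the differences were 0.91 and 0.86 for the first and second probe, and without both stand-apart arrays 0.98 and 0.89. Agilent's processed log ratios gave 0.86 and 0.98. With array weights, which lower the influence of the noisier arrays, the first probe's difference was 0.83 and passed the threshold (adjusted p = 0.0454); over all alternatives of this gene the adjusted p ran from 0.0454 to 1.0.

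Fgf9, which acts together with Fgf20 on the progenitors and is made by ureteric cells as well, had lower values in most mutant pools. Its 1 probe read 0.21, -0.20, 0.07 and 0.04 in wildtype pools 1 to 4, and 0.00, -0.61, -0.42 and -0.50 in the mutant pools. Mutant pools 2, 3 and 4 lay below every wildtype pool, and mutant pool 1 again lay among the wildtype values. Means were 0.02 ± 0.21 and -0.36 ± 0.31 (SD, n = 3), and the difference was -0.38 (SE 0.18; 95% interval -0.81 to 0.06), 1.3-fold lower. The adjusted p was 0.751 in limma and 0.247 with the replicate block, where the unadjusted p was 0.0106. Within pool numbers the differences were -0.21, -0.40 and -0.51. Leaving out wildtype pool 2, the lowest of its group, gave -0.49, leaving out mutant pool 1 gave -0.55, and leaving out both gave -0.66. Taking all 8 arrays as separate samples with the block gave an adjusted p of 0.0482, the only alternative in which Fgf9 passed. Ureteric bud markers, the other source of Fgf9 in the kidney, had a median difference of 0.03 over 20 of 20 tested, with sample means of the log ratios from -0.28 to 0.02 in wildtype and -0.20 to 0.17 in mutant samples. All 20 were well above background on 8 arrays, and none passed the test. At an unadjusted p under 0.05, 4 were higher (Ret 0.66, Wnt9b 0.41, Sox9 0.41 and Calb1 0.48) and 0 lower. Of all genes, 4.46% were higher and 2.78% lower. Groups did not overlap for 4 of these markers, all higher (Ret, Wnt9b, Sox9 and Gata3), against 8.72% of all genes. Their part in the Fgf9 values was not tested. In these bulk samples, fewer cells of a type and less RNA per cell cannot be told apart.

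Set side by side within a sample, the Fgf20 ratio minus the Fgf9 ratio was -0.33, 0.35 and -0.03 in wildtype pool 1, pool 2 and pools 3 and 4. In the mutant samples it was 0.13, 1.69 and 1.24. The pair of ligands was thus furthest apart in mutant pool 2 and in mutant pools 3 and 4, and mutant pool 1 lay inside the wildtype range. This contrast was chosen after the values were seen and has no test.

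Fgf8, the ligand of the pretubular aggregate and renal vesicle, had 3 probes, of which the third was well above background in Cy5 on 1 array of 8 and was left out of the tests. The brightest probe read -0.05, -0.31, -0.40 and -0.29 in wildtype and 0.25, -0.78, -0.68 and -0.74 in mutant pools. Mutant pool 1 was the highest of all 8 pools and the other three mutant pools were the lowest. The difference was -0.18 (SE 0.27; 95% interval -0.82 to 0.47; adjusted p = 0.886, limma), and without mutant pool 1 it was -0.51. The second probe put mutant pool 1 with the other mutants: it read 0.16, -0.14, -0.08 and -0.12 in wildtype and -0.37, -0.54, -0.41 and -0.37 in mutant pools, and the groups did not overlap. Its difference was -0.41 (SE 0.12), 1.33-fold lower, with an adjusted p of 0.552 over all probes tested (limma), where 8 of 30364 probes passed (0.0263%) and none of the 16 member probes did. Groups did not overlap, with mutants lower, for 5.6% of all probes. The exact two-sided permutation p was 0.10, the smallest that 3 against 3 samples allow. On the mutant 1 array the Fgf8 probes differed by 0.626, against 0.165 to 0.366 on the other 7 arrays, so the sign of the brightest probe's value in that pool is not shared by its partner.

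Markers of the renal vesicle and pretubular aggregate, where Fgf8 is made, had a difference below 0 for 14 of 18, with a median difference of -0.40. All 18 were well above background on 8 arrays, and the sample means of their log ratios were -0.30 to 0.07 in wildtype and -0.72 to -0.30 in mutant samples. None passed the threshold (8 lower and 1 higher at an unadjusted p under 0.05, where 2.78% and 4.46% of all genes were). Their part in the Fgf8 values was not tested.

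**Figure D1:**
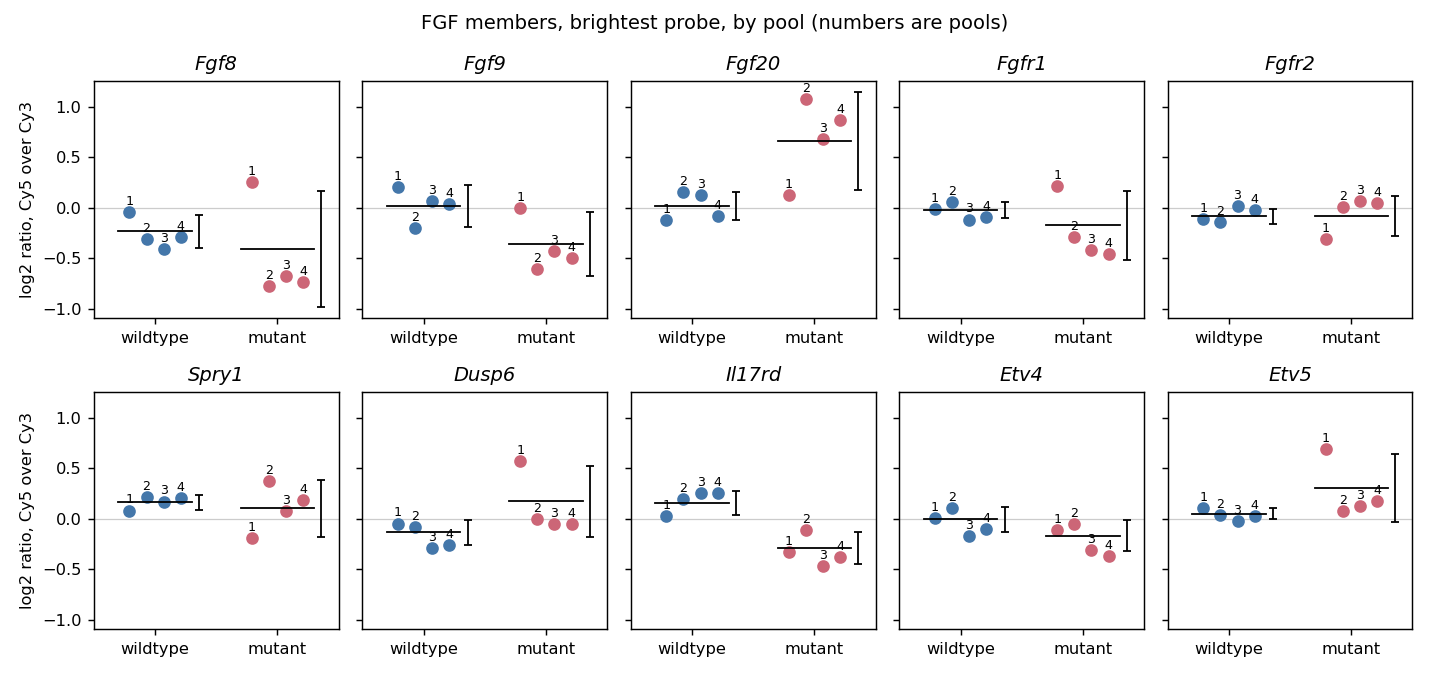
Log2 ratio of Cy5 over Cy3 of the brightest probe of each of the 10 genes (vertical axis) in the wildtype (blue) and mutant (red) pools, numbered by pool. Horizontal lines are means and bars SDs over 3 samples per group, with pools 3 and 4 averaged. Il17rd is the 1 gene whose groups do not overlap, and mutant pool 1 stands apart from the other mutant pools for most of the genes, among them Fgf8, Fgf20, Fgfr1, Dusp6 and Etv5.

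The receptors Fgfr1 and Fgfr2, receptor tyrosine kinases that nephron progenitors need together for survival, did not pass the test with any probe. Fgfr1 was measured by 3 probes. The brightest read -0.01, 0.05, -0.12 and -0.09 in wildtype and 0.21, -0.29, -0.42 and -0.46 in mutant pools, so that mutant pool 1 was the highest and the other three mutant pools the lowest of all. The difference was -0.15 (SE 0.17; 95% interval -0.56 to 0.26; adjusted p = 0.848, limma), and -0.34 (SE 0.10; adjusted p = 0.404) without mutant pool 1. The second Fgfr1 probe read 0.01, 0.37, 0.06 and 0.16 in wildtype and -0.92, 0.06, -0.16 and -0.11 in mutant pools, and here mutant pool 1 was the lowest of all 8. Its difference of -0.49 (SE 0.25) became -0.20 without that pool. The second probe was lower in the mutant within all 3 pool numbers, by -0.92, -0.31 and -0.24 (with the block, unadjusted p = 0.0229 and adjusted p = 0.371, limma). The third probe differed by 0.06 (SE 0.13), with mutant pool 1 at 0.29, and its sign turned to -0.08 with spike-in centring. On the mutant 1 array the Fgfr1 probes spanned 1.21, and on the other 7 arrays 0.198 to 0.465. The probes carry 1 accession, and the sources used here do not say which transcripts each of them covers. The mean Fgfr1 change thus depends on the probe and on 1 array. The mean of the 3 probes gave -0.19 (SE 0.089; adjusted p = 0.737, limma). That mean averages the opposite values of the first and second probe on the mutant 1 array.

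Fgfr2 was close to level with all samples kept. Its brightest probe read -0.11, -0.14, 0.02 and -0.02 in wildtype and -0.31, 0.00, 0.06 and 0.05 in mutant pools, where mutant pool 1 was the lowest and the others lay within or just above the wildtype range. The difference was 0.00 (SE 0.12), and its 95% interval of -0.29 to 0.30 bounds a change that these samples could have missed. The second Fgfr2 probe is printed 10 times on each array. The SD between its spots was 0.0574 to 0.0851 per array over the 8 to 10 spots used. That probe read -0.01, -0.11, 0.11 and 0.19 in wildtype and -0.36, 0.13, 0.17 and 0.22 in mutant pools. Mutant pool 1 was again the lowest, as with the first probe. The SD between spots covers spot noise within an array only, not the spread between pools. The difference was -0.02 (SE 0.17). Leaving out mutant pool 1 gave 0.12 for the first probe and 0.15 for the second, so the level mean rests in part on that pool.

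**Figure D2:**
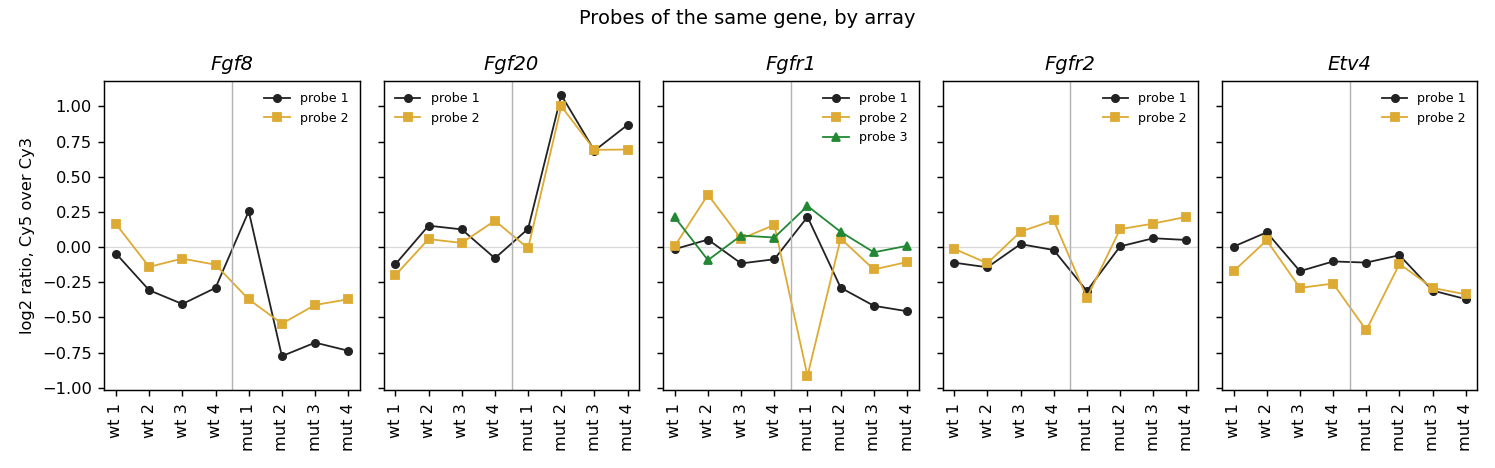
Log2 ratio of Cy5 over Cy3 (vertical axis) of every probe that passed the filter, for the 5 genes with more than 1 such probe, on the wildtype and mutant arrays (horizontal axis). Fgf20 and Fgfr2 probes follow each other across arrays, whereas the Fgfr1 probes spread over 1.21 on the mutant 1 array and the Fgf8 probes over 0.626.

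Among the feedback inhibitors, Il17rd, a membrane protein also called Sef that restrains FGF receptor signalling, was lower in all mutant pools. It read 0.03, 0.19, 0.25 and 0.26 in wildtype pools 1 to 4, and -0.34, -0.11, -0.47 and -0.38 in the mutant pools. The groups did not overlap: even the highest mutant value (pool 2) lay below the lowest wildtype value (pool 1). Means were 0.16 ± 0.12 and -0.29 ± 0.16 (SD, n = 3). The difference was -0.45 (SE 0.12; 95% interval -0.73 to -0.17), 1.37-fold lower, with an adjusted p of 0.413 (limma) and 0.225 with the replicate block. The unadjusted p was 0.0072, and the exact two-sided permutation p was 0.10, the smallest the design allows. The difference held its size without mutant pool 1 (-0.43), without wildtype pool 2 (-0.43) and without both (-0.41), and Agilent's processed ratios gave -0.42. With all 8 arrays as separate samples its adjusted p was 0.0444, and 0.0459 with the block added. Over all alternatives it ran from 0.0444 to 1.0.

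The genes whose pattern over the 6 samples was nearest to that of Il17rd, by root mean square difference of centred log2 ratios among 14811 genes with a symbol, were Cyp26a1 (0.0390), H2-Aa (0.0552) and Prodh (0.0607). Cyp26a1 encodes an enzyme that breaks down retinoic acid, H2-Aa an antigen-presenting class II protein and Prodh the proline dehydrogenase of mitochondria. Their own differences were -0.39, -0.38 and -0.43, with adjusted p of 0.493, 0.491 and 0.312 (limma). The genes were picked by these same samples, so differences close to that of Il17rd follow from the choice. A link between these genes and Il17rd was not tested.

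Dusp6, the phosphatase that inactivates ERK, did not share the direction of Il17rd. It read -0.05, -0.08, -0.30 and -0.26 in wildtype and 0.57, -0.01, -0.05 and -0.05 in mutant pools. Mutant pool 1 was far above the rest, and the other mutant pools lay close to the highest wildtype values. The difference was 0.31 (SE 0.18; 95% interval -0.12 to 0.74; adjusted p = 0.79, limma), and 0.11 (SE 0.10) without mutant pool 1. Within the 3 pool numbers the mutant was higher by 0.62, 0.07 and 0.23. Spry1, which restrains receptor tyrosine kinase signalling in the kidney, read 0.08, 0.21, 0.17 and 0.20 in wildtype and -0.19, 0.37, 0.08 and 0.19 in mutant pools. Both the lowest and the highest Spry1 value came from mutant pools. Its difference of -0.06 (SE 0.15; 95% interval -0.41 to 0.30) was within the sample spread and turned to 0.09 without mutant pool 1.

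The ETS factors Etv4 and Etv5, transcription factors of the PEA3 group that serve as readouts of FGF signalling and also act downstream of Ret in the ureteric bud, had differences of opposite sign, neither beyond the sample spread. Etv4 read 0.00, 0.11, -0.17 and -0.10 in wildtype and -0.11, -0.06, -0.31 and -0.37 in mutant pools with its brightest probe. The mutant value was lower within all 3 pool numbers, by -0.11, -0.16 and -0.20, yet the groups overlapped. The difference was -0.16 (SE 0.12; 95% interval -0.44 to 0.12; adjusted p = 0.819, limma). The second Etv4 probe read -0.17, 0.05, -0.29 and -0.26 in wildtype and -0.59, -0.12, -0.29 and -0.34 in mutant pools. Its difference was -0.21 (SE 0.15), and -0.08 without mutant pool 1.

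Etv5 read 0.11, 0.04, -0.02 and 0.02 in wildtype and 0.69, 0.07, 0.12 and 0.17 in mutant pools. As for Dusp6, 1 pool, mutant 1, lay far above all others, and the remaining mutant pools lay within or just above the wildtype range. The difference of 0.26 (SE 0.17; 95% interval -0.15 to 0.66; adjusted p = 0.808, limma) became 0.06 (SE 0.09) without that pool. Within the 3 pool numbers the mutant was higher by 0.58, 0.04 and 0.15. The Etv5 ratio minus the Etv4 ratio was 0.10, -0.07 and 0.13 in the wildtype samples and 0.80, 0.13 and 0.49 in the mutant samples. This contrast too was chosen after the values were seen and has no test.

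**Figure D3:**
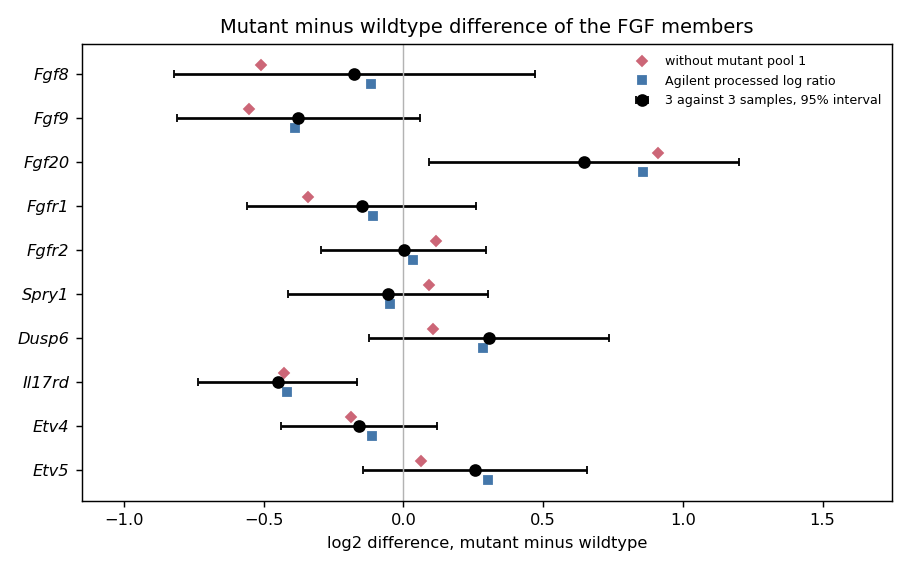
Mutant minus wildtype log2 difference of the brightest probe of each of the 10 genes (horizontal axis). Black points with 95% intervals are from 3 against 3 samples, red diamonds leave out mutant pool 1, and blue squares use Agilent's processed log ratios. Intervals of Fgf20 (0.09 to 1.20) and Il17rd (-0.73 to -0.17), unadjusted for the number of genes, do not reach 0.

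The order of the 10 differences, from highest to lowest, was Fgf20, Dusp6, Etv5, Fgfr2, Spry1, Fgfr1, Etv4, Fgf8, Fgf9 and Il17rd. Each interval overlapped that of its neighbours in this order. Mutant pool 1 weighed on several of them at once. Without it, the difference was 0.91 for Fgf20, -0.55 for Fgf9, -0.51 for Fgf8 and -0.34 for Fgfr1, all farther from 0, and 0.11 for Dusp6 and 0.06 for Etv5, both nearer to 0. None of these had an adjusted p below 0.159 (limma) in that fit.

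The other genes of the pathway were taken from 5 lists. None of their genes passed the threshold in either direction, with or without the replicate block (limma). For the counts of each list below, the shares over all genes were 4.46% higher and 2.78% lower at an unadjusted p under 0.05. Groups did not overlap for 8.72% (mutants higher) and 5.95% (mutants lower) of all genes. Of 19 other FGF family genes, 12 were tested, with a median difference of 0.01 and 2 higher and 0 lower at an unadjusted p under 0.05. Those 2 were Fgf12, an intracellular FGF homologue (0.46, SE 0.11), and Fgf10, a mesenchymal ligand that signals to epithelium (0.38, SE 0.12), whose groups did not overlap. Fgf12 was at 0.73 with Agilent's processed ratios and 0.85 with Cy5 alone. It was at 0.32 with spike-in centring and 0.39 with the mean of its kept probes. Fgf10 was at 0.61 with Cy5 alone and 0.24 with spike-in centring. Fgf10 read 0.05, 0.07 and 0.00 in wildtype samples and 0.23, 0.64 and 0.39 in mutant samples. The other 7 of this list, among them Fgf3, Fgf4 and Fgf17, did not pass the filter on dim probes.

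Of 12 other receptors, co-receptors and binding proteins, 11 were tested (median -0.05; 1 higher and 0 lower at an unadjusted p under 0.05). That gene was Flrt1, a transmembrane protein that associates with FGF receptors, and it showed the largest difference of all these pathway genes. Flrt1 read 0.07, 0.25 and 0.21 in the wildtype samples and 1.46, 1.38 and 1.06 in the mutant samples. The groups were far apart, with a difference of 1.12 (SE 0.13), 2.18-fold higher, and an adjusted p of 0.0788, or 0.0606 with the replicate block (limma). Flrt1 passed in 3 of 27 alternatives, and the mean of its kept probes gave a smaller difference of 0.87 (SE 0.099). The receptors Fgfr3 and Fgfr4 differed by -0.14 (SE 0.28) and -0.27 (SE 0.19), and the decoy receptor Fgfrl1 by 0.03 (SE 0.09).

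All 17 genes for heparan sulfate and its core proteins were tested, with a median of -0.03 and 0 higher and 1 lower at an unadjusted p under 0.05. The lower one was Sulf1, a sulfatase that trims heparan sulfate, at -0.45 (SE 0.11), with wildtype samples at 0.00 to 0.21 and mutant samples at -0.46 to -0.19. With Cy5 alone it was -0.23, and with the mean of its kept probes -0.49 (SE 0.18). Gpc1, a glypican core protein, was at 0.29 (SE 0.17), with mutant 1 at 0.55 and the other mutant samples at -0.04 and 0.00. Without mutant pool 1 it was 0.10 (SE 0.08). Of 23 RAS-ERK cascade genes, 22 were tested, and none passed at an unadjusted p under 0.05. Their median was -0.01. The lowest and highest differences, -0.39 for the kinase Map2k1 and 0.20 for the adaptor Grb2, rested on mutant pool 1, which read -1.52 and 0.51. The other mutant samples read -0.02 and -0.08 for Map2k1, above all its wildtype samples (-0.17 to -0.13), and 0.04 and 0.09 for Grb2 (wildtype -0.0041 to 0.04). The adaptor phosphatase Ptpn11 (0.06, SE 0.09) and the exchange factor Sos1 (0.15, SE 0.10) were the 2 of 22 whose groups did not overlap with mutants higher, a share near the 8.72% of all genes. Sos1 was at 0.0051 with spike-in centring, 0.40 with Agilent's processed ratios and 0.58 with Cy5 alone.

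Of 29 further feedback and ERK target genes, 25 were tested, with a median of -0.02, and 5 lower and 1 higher at an unadjusted p under 0.05 (all genes: 2.78% lower, 4.46% higher). Groups did not overlap for 5 lower and 2 higher, against 5.95% and 8.72% of all genes. Egr1, Myc, Ccnd1 (-0.41), Egr2 (-0.38) and Etv1 were the lower genes in both counts, and Elk3 (0.31) was the higher one at that p. The immediate early transcription factor Egr1 read 0.14, 0.01 and 0.16 in wildtype and -0.38, -0.46 and -0.67 in mutant samples. Its groups did not overlap, and its difference was -0.61 (SE 0.11), 1.53-fold lower, with an adjusted p of 0.22 (limma). With Cy5 alone it was -0.37. Myc, a growth regulator, read -0.16, -0.13 and -0.09 in wildtype and -1.33, -0.58 and -0.54 in mutant samples. Its difference of -0.69 (SE 0.21; adjusted p = 0.491, limma) was -0.44 without mutant pool 1, the lowest sample. The Sprouty gene Spry2 differed by -0.18 (SE 0.13), and the third PEA3-group factor, Etv1, by -0.25 (SE 0.10).

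**Figure D4:**
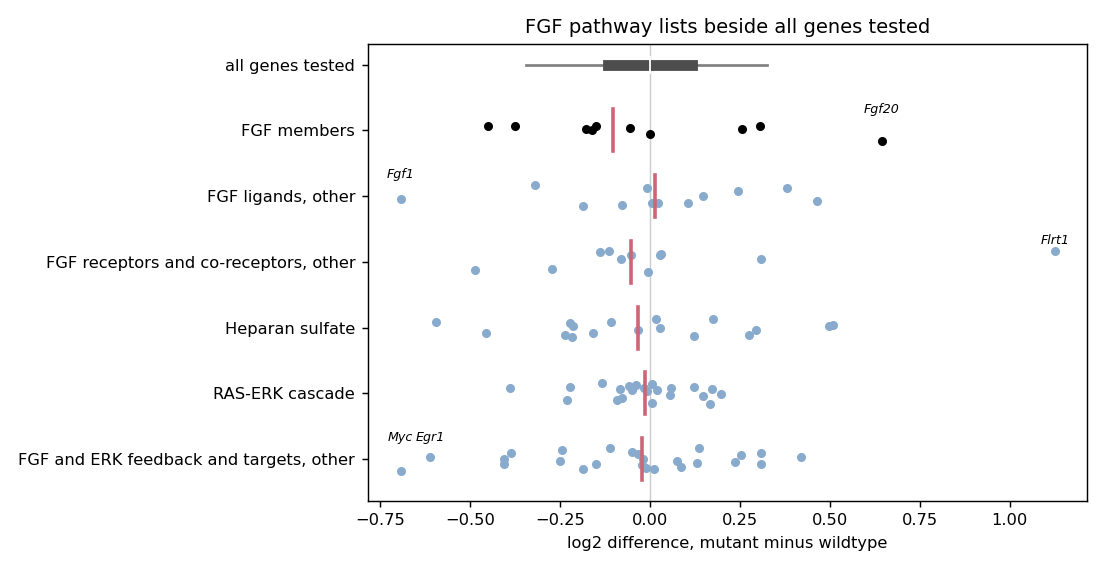
Mutant minus wildtype log2 difference (horizontal axis) of each tested gene of the 10 members and 5 pathway lists, with list medians as red lines. The top row shows all 22662 genes tested: median as a white line, thick bar from the 25th to the 75th percentile (-0.12 to 0.12) and thin line from the 5th to the 95th (-0.34 to 0.33). Medians of the 5 pathway lists lie between -0.05 and 0.01, that of the 10 members is -0.10, and Flrt1 (1.12) lies farthest out. Genes are labelled by the size of their difference, and Fgf1, the lowest of its list (-0.69, SE 0.43), has overlapping groups.

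Markers of other cells that a sort of whole kidneys could hold gave these values. Interstitial stroma markers had a difference above 0 for 14 of 18 (median 0.22), and none passed. At an unadjusted p under 0.05, 3 of these markers were higher and 0 lower, against 4.46% and 2.78% of all genes. Groups did not overlap for 4 of these markers, all higher, against 8.72% of all genes. Their sample means were -0.12 to 0.10 in wildtype and -0.03 to 0.37 in mutant samples. Endothelial markers had a median of 0.17 and leukocyte markers of 0.03. Proximal tubule markers had a median of -0.98, with sample means of -1.30 to 0.81 in wildtype and -1.71 to -0.46 in mutant samples, and podocyte markers a median of -0.52. Of the 15 proximal tubule markers 14 had a difference below 0, and Pdzk1 passed with the replicate block (adjusted p = 0.0313, limma; 0.775 without it). The part of these cells in the values of the 10 genes was not tested. Nephron progenitor markers had a difference below 0 for 12 of 17 (median -0.29). At an unadjusted p under 0.05, 6 were lower and 0 higher, against 2.78% and 4.46% of all genes. Groups did not overlap for 6 lower and 1 higher, against 5.95% and 8.72%. Cited1 passed with and without the replicate block. Meox2 (-1.92) passed with the block (adjusted p = 0.0313, limma) and not without it (0.0808).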

How the data were processed

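Per the file headers, the authors used Agilent Feature Extraction 10.7.3.1 to extract linear intensity values of each spot and its local background from 8 array scans. The median signals were analysed, and mean signals were not analysed here. The authors' deposited log10 ratios of Cy5 over Cy3, turned to log2, served as an alternative. The deposited value table holds the same log10 ratios (r of at least 0.999999 with the scanner files on each array; column medians 0 on 7 arrays and 0.00483 on wildtype 2). Background was corrected by normexp (offset 50) and each array normalized by loess, in limma 3.58.1 (R 4.3.3), with no scaling between arrays. Such signals are no counts of molecules, and precision is limited by how many arrays there are.

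Probes entered the tests when their Cy5 signal was well above background on 3 or more of a group's 4 arrays: 30364 of 55681 probes, 16 of the 17 FGF probes. Accessions were named through a RefSeq table (GRCm38.p6), used only for names; 27509 probes matched 20887 symbols. The brightest probe per symbol, or per accession where no symbol matched, gave 22662 genes, of which 14989 had a symbol. Shares of all genes are over these 22662, except that shares of groups not overlapping are over the 22328 with a value in every sample. Tests were limma's lmFit and eBayes (two-sided, Benjamini-Hochberg over all genes or probes, threshold 0.05) over 3 against 3 samples, and an exact permutation test for single values, whose smallest p is 0.1. Pool numbers were taken to pair the samples from the data, not from a label: over genes, deviations from group means correlated with r = 0.495, 0.543 and 0.527 between same-numbered samples. Between differently numbered samples r was -0.454 to -0.0777, in part because deviations cancel within a group. On the single slide, mutants fill one row and wildtypes the other, and row and group cannot be told apart. The fit was checked on simulated data.

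The 10 genes and all lists were chosen with earlier results of these data known. All 10 genes and their probes are described. From each pathway list, genes past the threshold were to be named, and otherwise the 2 with the largest difference among those whose groups do not overlap. Fgf1, Map2k1, Grb2, Fgfr3, Fgfr4, Fgfrl1, Spry2, Etv1, Ccnd1, Egr2 and Elk3 were named after their values were seen. Cell type marker lists are given by counts and medians, with members named where a count was small.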

Additional observations from a re-analysis of the deposited data

How the results depend on the processing

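Of 27 alternatives, 24 left all 10 genes and all genes of the pathway lists outside the threshold of 0.05, and no single member probe passed in any alternative run on probes. Taking 8 arrays as separate samples called 1 of the 10 (Il17rd) and 3 pathway genes (Fgf12, Flrt1, Egr1), array weights 1 (Fgf20) and 2 (Flrt1, Egr1), and 8 arrays with the replicate block 2 (Fgf9, Il17rd) and 6; pools 3 and 4 then count as separate samples although they differ by no more than technical noise. The count over all genes was 10 in the report and 34 with the replicate block, 257 with 8 arrays as separate samples, 745 with both, 143 with array weights, 91 with spike-in centring, 5 with a trended robust variance and 0 with Cy5 alone (957 at an unadjusted p under 0.05). Leaving out samples gave 1 to 10 genes, and 0 to 47 with the block. Named for moving that count by over 1.5 times, wildtype 1 and wildtype 2 left 4 each, mutant 1 left 6, wildtype 3 and 4 together 1, and mutant 3 and 4 together 3. Over 3 against 3 samples the block changed no call of the 10 genes; over 8 separate arrays it added Fgf9 (adjusted p 0.246 without it, 0.0482 with it).

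Fgf9, Fgf20, Fgfr1, Dusp6, Il17rd, Etv4 and Etv5 kept their sign in all 27 alternatives, with ranges of -0.66 to -0.11, 0.44 to 0.98, -0.34 to -0.016, 0.11 to 0.42, -0.59 to -0.32, -0.30 to -0.074 and 0.057 to 0.37. The sign turned where the difference was small, and the cause was not tested. Fgf8 reached 0.0066 without mutant 2, and leaving samples out gave -0.55 to 0.0066. Fgfr2 turned to -0.14 with spike-in centring, which lowers the median of all genes to -0.14 as well, and to -0.010 with the mean of its probes. Leaving out samples moved it between -0.072 and 0.12 (-0.043 without mutant 2, -0.069 without mutant 3 and 4, -0.026 with the block and without pools 3 and 4). Spry1 turned to 0.012 with Cy5 alone, where the median of all genes is 0.13, and to 0.027 with array weights, with -0.19 to 0.12 over the samples left out (0.051 with the block and without pool 1). The third Fgfr1 probe turned to -0.078 with spike-in centring and -0.049 with array weights (-0.097 to 0.14 over samples left out, -0.0046 with the block and without pool 2), and the second Fgfr2 probe to 0.0054 with Agilent's processed ratios, 0.42 with Cy5 alone and 0.084 with array weights (-0.15 to 0.15 over samples left out, -0.092 without mutant 2, 0.049 without wildtype 3 and 4). The second Etv4 probe turned to 0.0070 without wildtype 2 and mutant 1 (-0.32 to 0.0070), a pair left out after the data were seen. Ptpn11 turned to -0.081 with spike-in centring.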
